A study of Mus musculus with 6 samples.

Results

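The 38 genes described here run the cell cycle and copy DNA. They are G1 cyclins and their kinases, inhibitors of those kinases, genes of the G1/S transition, the origin licensing factors and the MCM helicase, enzymes of S phase, and the cyclins, kinases and other genes of G2 and mitosis. They were chosen by name, with no filter on expression, and all 38 were among the 16135 genes of the deposited table. Their RNA was measured in whole mouse liver, where the adult hepatocytes are mostly resting and a small share of cells is in the cycle.

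The study sequenced RNA from ACSS2-HKO livers, in which hepatocytes are by design to lack ACSS2, and from ACSS2-flox livers, which carry the floxed allele as the control. ACSS2 is the nuclear and cytosolic enzyme that makes acetyl-CoA from acetate. Mice of both genotypes were fed ethanol for 10 days in the Lieber-DeCarli liquid diet, and then got 1 ethanol binge, so no group was free of ethanol. Each genotype had 3 libraries. Since the labels leave it unsaid whether each library is its own animal, a p-value reflects only how much these samples vary, and part of that variation may be technical. The sources used here do not give the Cre driver, sex or age. Whole liver holds many cell types, and in such samples fewer cells of a type and less RNA per cell cannot be told apart.

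A cell that enters the cycle first builds D-type cyclins, which activate CDK4 and CDK6. These kinases release the E2F factors from the retinoblastoma proteins, and E2F then turns on cyclin E, the licensing factors and the enzymes of DNA synthesis. Later, cyclin A and cyclin B with CDK1, and the kinases of the Aurora and Polo families, drive the cell through G2 and mitosis. Liver is known for its ability to send resting hepatocytes back into this cycle after injury.

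The value of each gene is its FPKM, its number of sequenced fragments scaled to gene length and to the total of the library. Library totals ran from 33717125 to 39474527 fragments. The test was limma on log2(FPKM + 1), over the 9818 genes that averaged 1 FPKM or more. Fold changes are on that scale, ACSS2-HKO minus ACSS2-flox, and are given ± SE. They understate the change of low genes. Acss2 itself averaged 44.9 ± 6.13 FPKM in ACSS2-HKO libraries and 69.2 ± 16.1 FPKM in ACSS2-flox libraries (SD, n = 3 each), with no overlap between the genotypes. Its log2 fold change was -0.60 ± 0.21 (limma adjusted p = 0.637). The ratio of means was 0.648, so most of the Acss2 RNA was still counted, and ACSS2-flox replicate 1 was the highest library at 87.8 FPKM. Over all tested genes, 2.94% had all ACSS2-HKO values below all ACSS2-flox values. The library labelled ACSS2-flox replicate 1 stood apart, at -47.7 on a first principal component that held 47.2% of the variance, and ACSS2-HKO replicate 3 stood at 27.6 on the other side. The remaining 4 libraries lay between 2.51 and 8.49. In ACSS2-flox replicate 1 the tested genes had a median FPKM of 5.20, and in the others one of 6.67 to 7.09. All 10 hepatocyte markers examined, albumin among them, passed the same mean of 1 FPKM.

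The sequence around the start of a gene holds many of the short elements to which transcription factors bind. Genes of G2 and mitosis are known to hold CHR elements and CCAAT boxes close to their start, and genes of licensing and DNA synthesis are known to hold E2F sites. RefSeq start windows on GRCm38.p6, of 250 bases before to 50 bases after the start, were matched for 30 of the 38 genes. Ccnd1, Ccnd2, Ccne2, Mcm4, Ccna2, Foxm1, Aurkb and Stmn1 had no match. The CHR was searched as TTTGAA or TTCGAA, the CCAAT box as CCAAT, and the E2F site as TTTCCCGC, TTTCGCGC, TTTGCCGC or TTTGGCGC, each on both strands and with overlapping matches allowed.

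The CHR stood in 6 of the 7 matched G2/M windows, the exception being Ccnb1, and all 7 held a CCAAT box. Among the 27025 windows of all genes, 19.4% held the CHR letters and 37.9% held CCAAT. The CCAAT box was not particular to the G2/M windows. It stood in 5 of the 7 matched licensing and helicase windows and in 3 of the 4 of S-phase synthesis. The CHR also stood in 2 of the 7 licensing and helicase windows, those of Mcm2 and Mcm7. An E2F site stood in 6 of the 7 matched licensing and helicase windows, the exception being Mcm2, against 2.32% of all windows. It was found in 1 of the 7 G2/M windows, that of Cdk1, and in none of the 4 windows of the S-phase synthesis genes. The windows of Cdkn1a, Cdk6 and Ccnd3 held none of the 3 elements. A match is a description of the letters and not a tested site. The set of genes that shared its 2 highest libraries and its lowest one, described further on, had 10 matched windows. A CHR stood in 8 of these and a CCAAT box in 9, and that of Birc5 held none of the 3 elements. The 4 G2/M and proliferation windows below come from that set, each holds both a CHR and a CCAAT box, and capitals mark those matches. They are Cdk1 at chr10:69352863-69353162 on the minus strand, Ccnb2 at chr9:70421505-70421804 on the minus strand, Cdc20 at chr4:118437294-118437593 on the minus strand and Top2a at chr11:99024140-99024439 on the minus strand.
Cdk1: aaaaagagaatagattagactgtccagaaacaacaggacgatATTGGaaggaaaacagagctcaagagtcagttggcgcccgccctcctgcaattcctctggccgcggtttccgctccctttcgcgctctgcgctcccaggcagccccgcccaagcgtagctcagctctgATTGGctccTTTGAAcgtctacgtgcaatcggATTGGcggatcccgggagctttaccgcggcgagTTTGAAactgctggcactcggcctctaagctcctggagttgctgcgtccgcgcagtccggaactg
Ccnb2: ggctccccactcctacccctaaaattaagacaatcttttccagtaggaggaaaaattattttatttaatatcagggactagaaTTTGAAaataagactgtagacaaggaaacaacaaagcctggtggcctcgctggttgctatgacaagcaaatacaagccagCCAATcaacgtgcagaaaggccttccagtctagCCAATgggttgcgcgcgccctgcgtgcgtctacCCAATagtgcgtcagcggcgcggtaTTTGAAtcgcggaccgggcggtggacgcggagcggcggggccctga
Cdc20: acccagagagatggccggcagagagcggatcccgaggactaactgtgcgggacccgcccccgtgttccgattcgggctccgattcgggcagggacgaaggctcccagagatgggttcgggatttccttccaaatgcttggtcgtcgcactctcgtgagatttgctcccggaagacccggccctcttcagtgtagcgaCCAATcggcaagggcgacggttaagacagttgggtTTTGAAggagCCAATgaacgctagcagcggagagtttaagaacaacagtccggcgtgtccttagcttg
Top2a: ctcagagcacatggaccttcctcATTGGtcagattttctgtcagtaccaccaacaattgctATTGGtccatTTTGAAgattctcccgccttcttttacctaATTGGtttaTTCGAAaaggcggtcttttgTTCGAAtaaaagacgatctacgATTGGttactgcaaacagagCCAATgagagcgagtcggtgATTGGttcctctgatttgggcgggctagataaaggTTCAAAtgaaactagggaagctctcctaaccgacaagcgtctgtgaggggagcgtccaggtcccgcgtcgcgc

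Of the helicase genes, Mcm5 at chr8:75109259-75109558 on the plus strand and Mcm6 at chr1:128359656-128359955 on the minus strand are shown, with only E2F matches in capitals. Their CCAAT boxes, 3 in Mcm5 and 2 in Mcm6, are left in small letters.
Mcm5: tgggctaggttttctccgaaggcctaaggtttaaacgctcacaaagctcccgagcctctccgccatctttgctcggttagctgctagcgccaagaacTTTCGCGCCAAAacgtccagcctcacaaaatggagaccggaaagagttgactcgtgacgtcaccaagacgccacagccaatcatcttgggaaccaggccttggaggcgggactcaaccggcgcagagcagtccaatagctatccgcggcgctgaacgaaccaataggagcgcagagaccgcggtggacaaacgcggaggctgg
Mcm6: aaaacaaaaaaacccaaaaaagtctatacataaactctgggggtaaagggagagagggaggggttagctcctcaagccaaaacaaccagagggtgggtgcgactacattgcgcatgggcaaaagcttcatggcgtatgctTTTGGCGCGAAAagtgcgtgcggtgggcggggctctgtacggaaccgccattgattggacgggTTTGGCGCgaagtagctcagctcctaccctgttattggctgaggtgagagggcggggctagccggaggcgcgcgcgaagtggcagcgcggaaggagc
In both windows, neighbouring E2F matches overlap, so that 1 stretch of capitals holds 2 matches.

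The question put to these genes was whether their RNA differed between ACSS2-HKO and ACSS2-flox livers on the same ethanol regimen. No tested gene passed the limma threshold of an adjusted p under 0.05, and percent called was 0.0% of the 9818 genes in each direction. The smallest adjusted p over all genes was 0.452. At an unadjusted p under 0.05 limma counted 598 genes higher, which was 6.09%, and 147 lower, which was 1.5%, together 7.59%. Voom on the recovered fragments also called none at an adjusted p under 0.05, with 341 higher and 292 lower unadjusted. Under median-ratio scaling limma counted 317 higher and 347 lower unadjusted, with a median over all tested genes of -0.04 in place of 0.10 (log2). Of the 38 cell cycle genes, 31 reached the mean of 1 FPKM and were tested. Ccne2, Cdc6, Foxm1, Plk1, Aurka, Aurkb and Bub1 did not, and are given as values.

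At the unadjusted threshold limma counted 2 of the 31 tested members higher, Cdkn1a and Cdk6, and none lower. In 3 of the 38, Cdkn1a, Cdk6 and Ccnd3, all ACSS2-HKO values lay above all ACSS2-flox values, and in none did they lie all below. Over all tested genes 12.5% were separated upwards in this way and 2.94% downwards, so the members were not separated upwards more often than the background. The median log2 fold change of the 31 tested members was 0.25, beside 0.10 over all tested genes. Over all tested genes the fold change was positive in 6483 of 9818, and in 3037 of the 4054 that averaged 1 to 5 FPKM. Among the members it was positive in 24 of the 31, a share near that of the 4054. It was positive in 20 under median-ratio scaling and in 12 without ACSS2-flox replicate 1, where the median of the members was -0.04. With ACSS2-HKO replicate 3 left out as well, 7 of the 31 were positive and the median was -0.08. The count also moved upwards, to 29 and a median of 0.43 when only ACSS2-flox replicate 3 was left out. It was 26 without ACSS2-flox replicate 2, and 27, 24 and 20 without ACSS2-HKO replicates 1, 2 and 3.

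**Figure D1:**
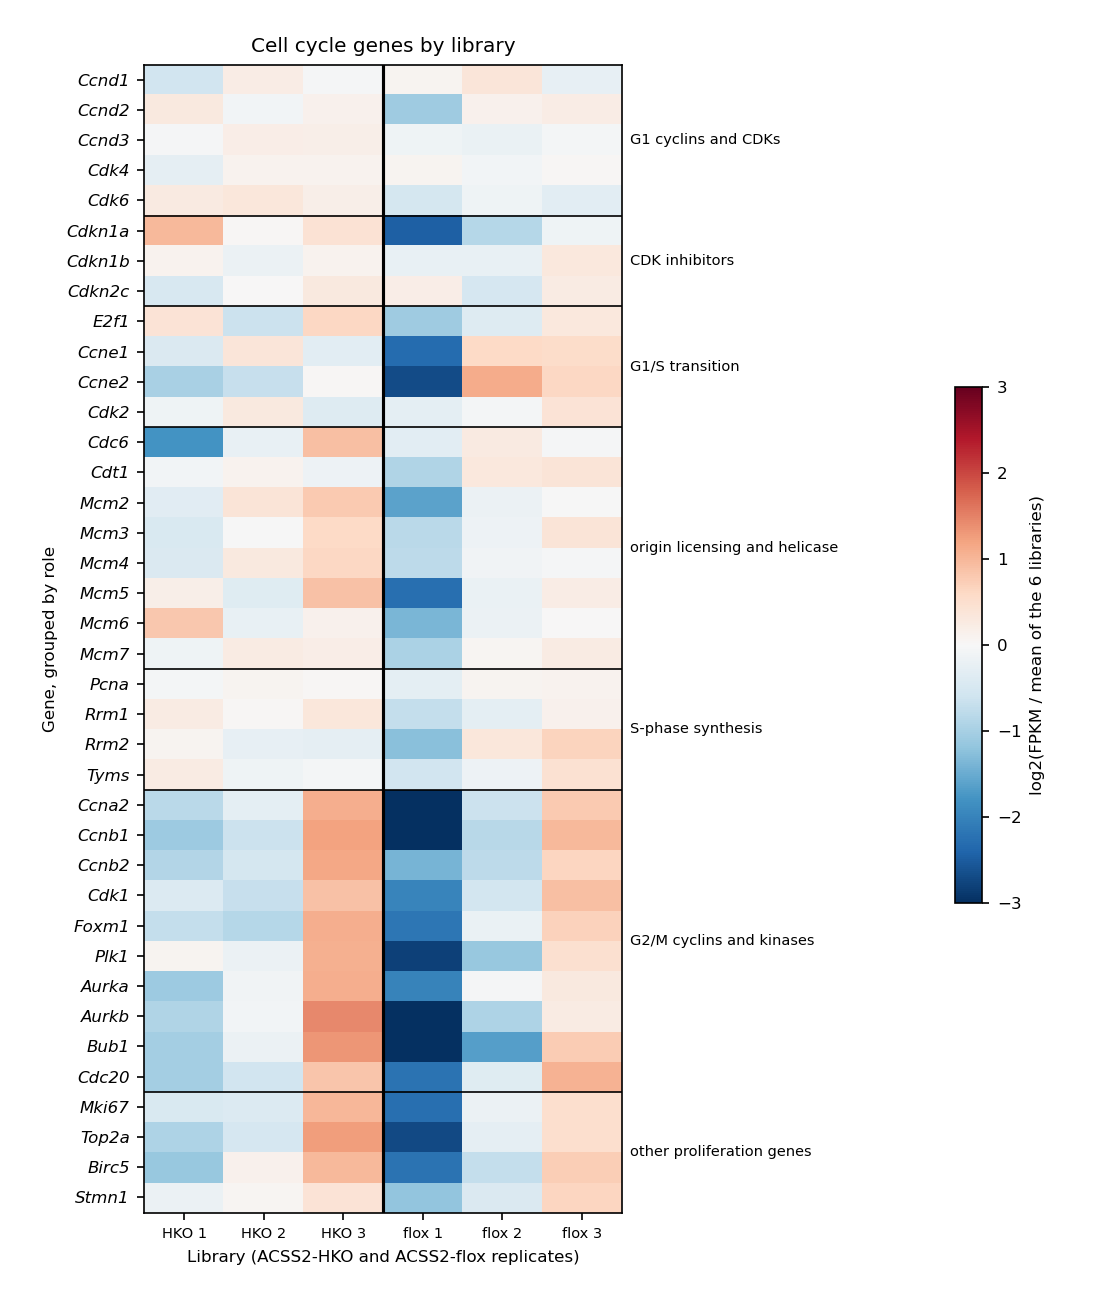
Each row is a gene and each column a library, and colour gives log2 of FPKM over the mean of the 6 libraries, with the scale ending at 3 in either direction. ACSS2-flox replicate 1 is lowest in 32 of the 38 genes, and in the G2/M and other proliferation rows ACSS2-HKO replicate 3 and ACSS2-flox replicate 3 are the highest.

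The G1 cyclins and CDKs sense growth signals and carry the cell towards S phase. Ccnd1, the main D-type cyclin of regenerating hepatocytes, had 30.6, 52.7 and 44.3 FPKM in ACSS2-HKO libraries, against 48.5, 58.5 and 38.4 FPKM in ACSS2-flox libraries. The groups overlapped widely, and the log2 fold change was -0.20 ± 0.25 (limma adjusted p = 0.873). Ccnd1 was the most abundant of the 38, at a mean of 45.5 FPKM. Of its exonic bases, 23.4% also lie in exons of LTO1 on the opposite strand, and the sources used here do not say whether counting used strand.

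Ccnd3, another D-type cyclin (chr17:47505051-47599689), had 13.9, 16.4 and 16.2 FPKM in ACSS2-HKO libraries, against 13.03, 12.45 and 13.7 FPKM in ACSS2-flox libraries. The groups did not overlap, by a narrow gap between the lowest ACSS2-HKO and the highest ACSS2-flox library. Its log2 fold change was 0.23 ± 0.16 (limma adjusted p = 0.752), and under median-ratio, TMM, quantile and length-loess scaling and under voom the groups overlapped. Ccnd2, the third D-type cyclin, was far lower, between 0.784 and 1.99 FPKM over the 6 libraries.

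Cdk4, a catalytic partner of the D-type cyclins, had 23.5, 30.3 and 30.3 FPKM in ACSS2-HKO libraries, against 29.7, 26.8 and 28.8 FPKM in ACSS2-flox libraries. The genotypes overlapped, at a log2 fold change of -0.03 ± 0.17 (adjusted p by limma = 0.977). Exons of Tspan31 cover 19.7% of its exonic bases on the opposite strand. Cdk6, the other partner kinase (chr5:3341004-3531008), was roughly an order of magnitude lower per length, with 2.93, 3.06 and 2.74 FPKM in ACSS2-HKO libraries, against 1.68, 2.21 and 1.96 FPKM in ACSS2-flox libraries. All 3 ACSS2-HKO values lay above all ACSS2-flox values, and the ratio of the means was 1.49. The log2 fold change was 0.41 ± 0.16 (limma adjusted p = 0.637), and an exact two-sided permutation test gave p = 0.1, the smallest that 3 against 3 libraries allow. Over the alternatives that tested it, which leaves out the filter of 5 FPKM, its log2 fold change ran between 0.19 and 0.56, and its unadjusted p was not under 0.05 with median-ratio, TMM, quantile or length-loess scaling, with the replicate block, or when any 1 library other than ACSS2-flox replicate 1 was left out.

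CDK inhibitors hold the cycle in check. Cdkn1a, which encodes p21, the inhibitor induced by p53 in stressed hepatocytes (chr17:29090979-29100722), had 7.39, 3.83 and 5.10 FPKM in ACSS2-HKO libraries, against 0.685, 2.09 and 3.45 FPKM in ACSS2-flox libraries. The lowest ACSS2-HKO value lay just above the highest ACSS2-flox value, and the ACSS2-flox libraries differed 5.04-fold among themselves. These values rest on 532, 280 and 410 fragments in ACSS2-HKO libraries, against 47, 158 and 269 in ACSS2-flox libraries. Cdkn1a averaged 5.44 ± 1.80 FPKM in ACSS2-HKO libraries and 2.07 ± 1.38 FPKM in ACSS2-flox libraries (SD, n = 3 each), a ratio of 2.62 that was the largest among the 38.

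The log2 fold change of Cdkn1a was 1.14 ± 0.36 (limma adjusted p = 0.637), and the exact permutation test gave p = 0.1. Leaving out each library in turn gave log2 fold changes of 0.76 to 1.46, and the sign was the same in all alternatives that tested the gene, within 0.57 to 1.55. Its mean is below the 5 FPKM filter, under which it was not tested. Over the alternatives its limma adjusted p was at least 0.269. Of its exonic bases, 7.7% lie in an unclassified transcript on the opposite strand. Marker sums of neutrophils and of Kupffer cells, given further on, were likewise higher in every ACSS2-HKO than in every ACSS2-flox library, and their part in the levels of Cdkn1a, Cdk6 and Ccnd3 was not tested.

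Both remaining inhibitors gave no such separation. Cdkn1b, which encodes p27, the inhibitor of resting cells, had 8.75, 7.19 and 8.71 FPKM in ACSS2-HKO libraries, against 6.92, 7.02 and 10.2 FPKM in ACSS2-flox libraries. Its log2 fold change was 0.04 ± 0.20 (limma adjusted p = 0.970). Cdkn2c, which encodes p18, an inhibitor of CDK4 and CDK6, had 3.59, 5.11 and 6.22 FPKM in ACSS2-HKO libraries, against 5.78, 3.56 and 5.98 FPKM in ACSS2-flox libraries. The groups overlapped throughout, at a log2 fold change of -0.03 ± 0.25 (adjusted p by limma = 0.981).

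**Figure D2:**
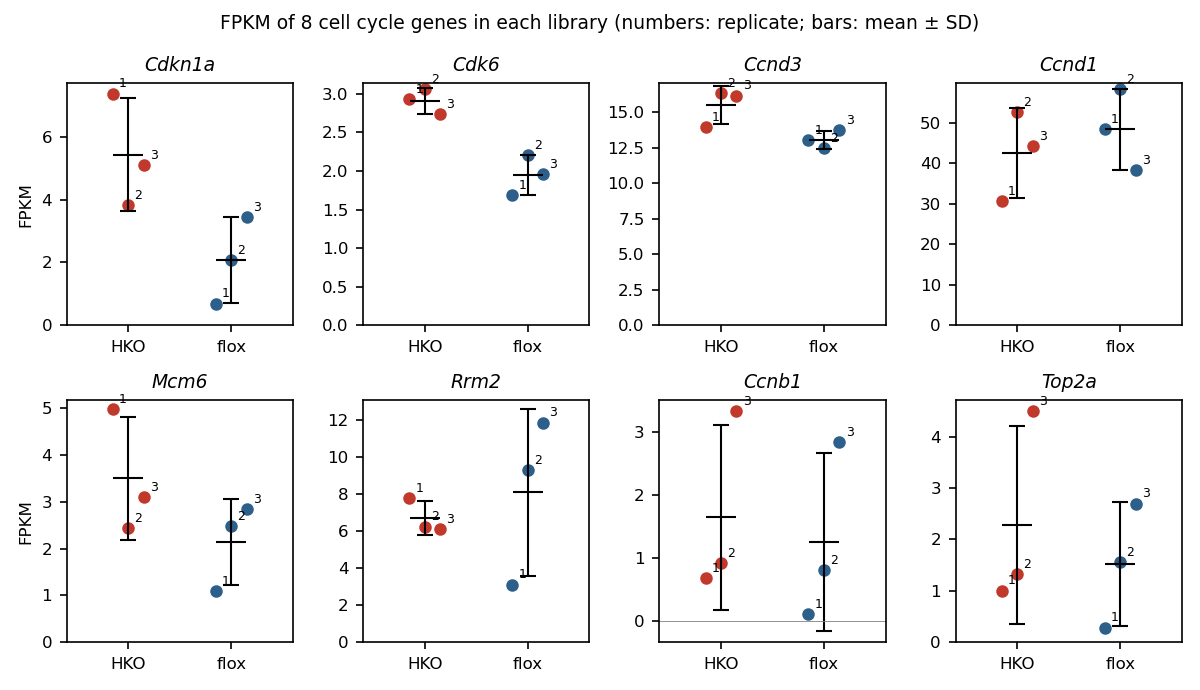
FPKM of 8 genes in each library, with the replicate number beside each point and bars for the mean ± SD of 3 libraries; the vertical axes differ and start at or just below 0. Cdkn1a, Cdk6 and Ccnd3 separate the genotypes, whereas Ccnb1 and Top2a have replicate 3 highest in both.

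At the G1/S transition, the E2F factor and cyclin E with CDK2 start DNA synthesis. Cdk2, the kinase of that step and the most abundant of the set, had 3.22, 4.36 and 2.70 FPKM in ACSS2-HKO libraries, against 2.90, 3.41 and 4.67 FPKM in ACSS2-flox libraries, at a log2 fold change of -0.07 ± 0.22 (adjusted p by limma = 0.9497). E2f1, the activator E2F, had 1.74, 0.836 and 2.04 FPKM in ACSS2-HKO libraries, against 0.632, 1.01 and 1.63 FPKM in ACSS2-flox libraries. Neither gene separated the genotypes.

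The cyclin E genes showed a different spread. Ccne1 had 0.998, 1.72 and 1.07 FPKM in ACSS2-HKO libraries, against 0.273, 2.03 and 1.96 FPKM in ACSS2-flox libraries, a mean log2 fold change of -0.01 ± 0.33 (adjusted p by limma = 0.999). Ccne2, the paralogue of Ccne1, had 0.437, 0.539 and 0.890 FPKM in ACSS2-HKO libraries, against 0.134, 1.86 and 1.33 FPKM in ACSS2-flox libraries. Within the ACSS2-flox group both were lowest in replicate 1, where they rest on 18 and 14 fragments. Without that library all ACSS2-HKO values of Ccne1, Ccne2, Cdt1 and Rrm2 lay below all ACSS2-flox values, a count of 4 of the 38 that does not exceed the 14.5% of all tested genes so separated there. Exons of Ints8 cover 17.4% of the exonic bases of Ccne2 on the opposite strand.

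Licensing loads the MCM helicase onto origins before S phase. The loader gene Cdc6 was the least abundant of the 38, at 0.0472, 0.140 and 0.307 FPKM in ACSS2-HKO libraries, against 0.130, 0.196 and 0.158 FPKM in ACSS2-flox libraries. Its partner Cdt1 had 2.87, 3.28 and 2.75 FPKM in ACSS2-HKO libraries, against 1.64, 3.80 and 3.97 FPKM in ACSS2-flox libraries. In neither did the groups separate.

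The 6 helicase subunits gave positive log2 fold changes, between 0.16 ± 0.27 for Mcm3 and 0.53 ± 0.29 for Mcm6, none past the limma threshold. Over all tested genes 6483 of 9818 were positive. Under quantile normalization the fold change of Mcm3 turned negative, as did those of 2 subunits with array weights or without ACSS2-flox replicate 1 and that of 1 without ACSS2-HKO replicate 3. Mcm7, the most abundant subunit, had 4.74, 6.12 and 5.89 FPKM in ACSS2-HKO libraries, against 2.68, 5.41 and 6.09 FPKM in ACSS2-flox libraries. Its log2 fold change was 0.25 ± 0.27 (limma adjusted p = 0.843), and its ACSS2-flox replicates 2 and 3 lay within the ACSS2-HKO range. Mcm2 had 1.55, 2.56 and 3.37 FPKM in ACSS2-HKO libraries, against 0.651, 1.73 and 1.95 FPKM in ACSS2-flox libraries.

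Mcm6 had 4.97, 2.43 and 3.10 FPKM in ACSS2-HKO libraries, against 1.09, 2.48 and 2.84 FPKM in ACSS2-flox libraries. For these subunits the ranges of the genotypes overlapped and ACSS2-flox replicate 1 was the lowest library. Mcm3, Mcm4 and Mcm5 lay between 0.391 and 3.93 FPKM. With both ACSS2-flox replicate 1 and ACSS2-HKO replicate 3 left out, 3 of the 6 subunits were positive and the median was -0.03.

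S-phase enzymes supply the replication fork. Pcna, the sliding clamp of DNA polymerase, had 31.04, 34.3 and 32.8 FPKM in ACSS2-HKO libraries, against 26.3, 34.1 and 34.5 FPKM in ACSS2-flox libraries. The log2 fold change of 0.06 ± 0.18 (adjusted p by limma = 0.951) turned to -0.11 under median-ratio scaling. Its level varied little between libraries, 1.10-fold within ACSS2-HKO and 1.31-fold within ACSS2-flox, in contrast to the mitotic genes below.

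Ribonucleotide reductase makes the deoxynucleotides. The genes of both its subunits were lowest in ACSS2-flox replicate 1 and had the same order within ACSS2-flox, and their fold changes were not compared by a test. Rrm2, the small subunit whose level is cell cycle dependent, had 7.80, 6.26 and 6.14 FPKM in ACSS2-HKO libraries, against 3.12, 9.32 and 11.9 FPKM in ACSS2-flox libraries. The 2 highest and the lowest value were all from ACSS2-flox libraries, and the log2 fold change was -0.09 ± 0.39 (limma adjusted p = 0.968). Rrm1, the large subunit, had 4.85, 4.17 and 5.20 FPKM in ACSS2-HKO libraries, against 2.49, 3.36 and 4.46 FPKM in ACSS2-flox libraries, at a log2 fold change of 0.39 ± 0.21 (adjusted p by limma = 0.675). Tyms, which makes thymidylate, lay between 1.31 and 2.65 FPKM in all libraries.

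**Figure D3:**
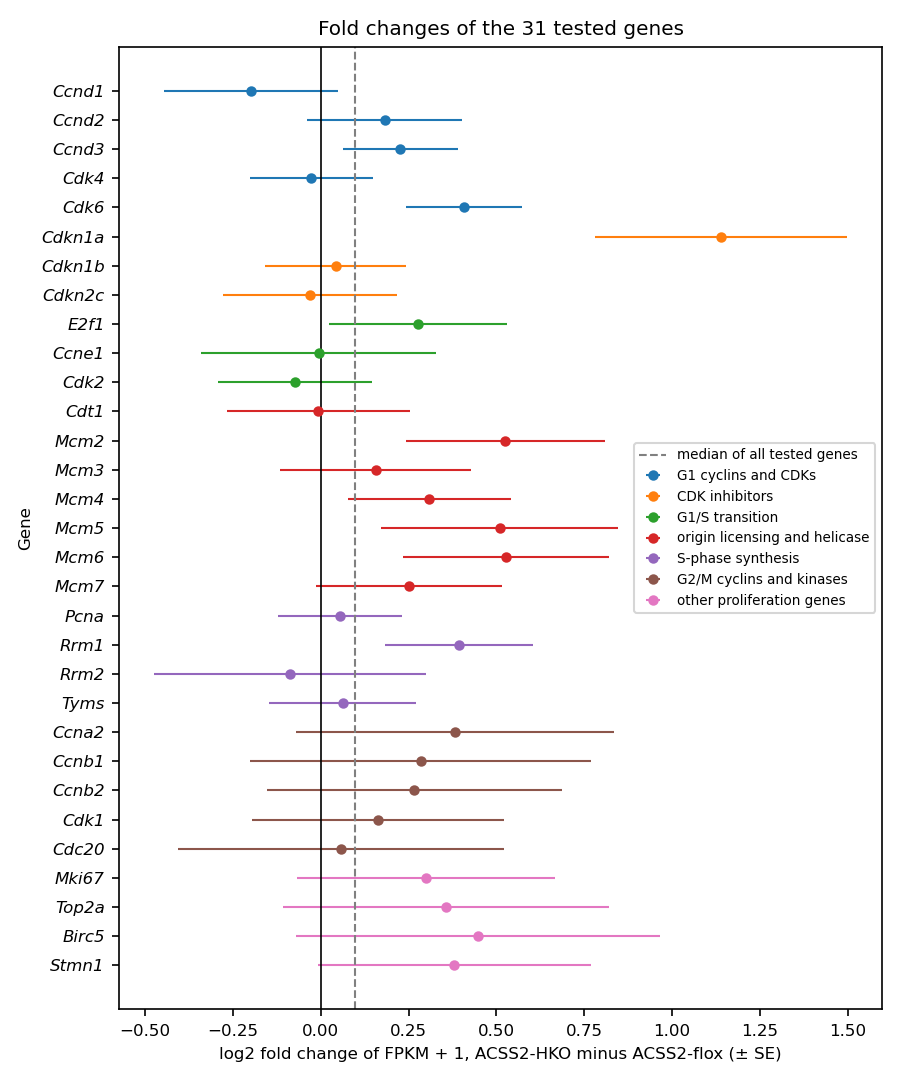
Points are log2 fold changes of FPKM + 1, ACSS2-HKO minus ACSS2-flox, for the 31 tested genes, bars are ± SE and the dashed line is the median of all tested genes. Cdkn1a lies furthest from 0, and the intervals of the G2/M and other proliferation genes are among the widest.

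G2/M genes and markers of dividing cells differed widely between libraries of 1 genotype. Over the 14 of them the highest library exceeded the lowest by 1.51-fold to 5.14-fold within ACSS2-HKO and by 3.53-fold to 24.6-fold within ACSS2-flox. The medians were 3.99-fold and 8.53-fold, beside 2.05-fold and 3.26-fold over all 38 members, which include these 14. In ACSS2-flox replicate 1 the 14 genes rested on 3 to 129 fragments each, and low counts widen such ranges. The ratio of the genotype means lay between 0.965 and 2.31. A ratio of means varies less than a range of single libraries, so these measures cannot be set against each other. Ccnb2, a mitotic cyclin and by mean level the first of the G2/M set, had 1.05, 1.34 and 4.36 FPKM in ACSS2-HKO libraries, against 0.731, 1.12 and 3.01 FPKM in ACSS2-flox libraries. Replicate 3 was far above the other replicates in both groups, and the log2 fold change was 0.27 ± 0.42 (limma adjusted p = 0.901). Ccnb1, its paralogue and the main partner of CDK1 in mitosis, had 0.684, 0.926 and 3.33 FPKM in ACSS2-HKO libraries, against 0.115, 0.813 and 2.84 FPKM in ACSS2-flox libraries.

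That spread was 4.86-fold within ACSS2-HKO and 24.6-fold within ACSS2-flox. In ACSS2-flox replicate 1 Ccnb1 rested on 9 fragments, with an exact 95% Poisson interval of 4.12 to 17.1, and in ACSS2-flox replicate 3 on 252 fragments, with an interval of 222 to 285; these intervals cover counting error only. The 2 intervals do not overlap. Ccnb1 had the widest spread within ACSS2-flox of the 38 genes.

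Cdk1, the mitotic kinase, had 0.930, 0.762 and 2.25 FPKM in ACSS2-HKO libraries, against 0.314, 0.834 and 2.28 FPKM in ACSS2-flox libraries. Ccna2, the cyclin of S phase and G2, had 0.972, 1.39 and 3.66 FPKM in ACSS2-HKO libraries, against 0.211, 1.09 and 2.93 FPKM in ACSS2-flox libraries. Exons of Exosc9 cover 12.5% of the exonic bases of Ccna2 on the opposite strand. Cdc20, the activator of the anaphase-promoting complex, had 0.951, 1.30 and 3.44 FPKM in ACSS2-HKO libraries, against 0.416, 1.51 and 3.96 FPKM in ACSS2-flox libraries. In all 3 the values of the genotypes interleaved.

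The mitotic genes below 1 FPKM on average had the same 2 highest libraries and the same lowest one. Plk1, the Polo kinase, had 0.983, 0.830 and 1.95 FPKM in ACSS2-HKO libraries, against 0.134, 0.425 and 1.30 FPKM in ACSS2-flox libraries. Aurkb, the kinase of the chromosomal passenger complex, had 0.514, 0.902 and 2.59 FPKM in ACSS2-HKO libraries, against 0.102, 0.501 and 1.13 FPKM in ACSS2-flox libraries. Their ratios of means, 2.03 and 2.31, were the highest after Cdkn1a, but the groups overlapped, and the exact two-sided permutation tests gave p = 0.3 for Plk1 and p = 0.4 for Aurkb. Aurka, the centrosomal Aurora kinase, Foxm1, the transcription factor of G2/M genes, and Bub1, a spindle checkpoint kinase, lay between 0.0205 and 1.94 FPKM.

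Among the other proliferation genes, Mki67 encodes the Ki-67 antigen, which stains dividing cells. It had 1.14, 1.17 and 3.11 FPKM in ACSS2-HKO libraries, against 0.327, 1.39 and 2.22 FPKM in ACSS2-flox libraries, at a log2 fold change of 0.30 ± 0.37 (adjusted p by limma = 0.872). Top2a, the topoisomerase that untangles sister chromosomes, had 1.004, 1.33 and 4.49 FPKM in ACSS2-HKO libraries, against 0.289, 1.57 and 2.70 FPKM in ACSS2-flox libraries. As in the cyclin B genes, replicate 3 of both genotypes was highest and ACSS2-flox replicate 1 lowest, while the middle libraries changed places.

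Birc5, which encodes survivin of the passenger complex, had 1.48, 3.55 and 6.33 FPKM in ACSS2-HKO libraries, against 0.702, 1.99 and 5.42 FPKM in ACSS2-flox libraries. Stmn1, a microtubule regulator, was the most abundant of the set, with 14.3, 17.0 and 21.6 FPKM in ACSS2-HKO libraries, against 7.22, 12.0 and 25.5 FPKM in ACSS2-flox libraries, and its log2 fold change was 0.38 ± 0.39 (limma adjusted p = 0.838).

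In each of these 14 G2/M and other proliferation genes, ACSS2-HKO replicate 3 and ACSS2-flox replicate 3 were the 2 highest libraries and ACSS2-flox replicate 1 was the lowest, a pattern noticed after the values were seen. ACSS2-HKO replicate 3 was the highest in 11 of them and ACSS2-flox replicate 3 in 3, which are Cdk1, Cdc20 and Stmn1. Over all tested genes, 5.86% had these 2 libraries on top and 52.9% had ACSS2-flox replicate 1 lowest. The 14 genes together held 1573, 1938 and 5453 fragments in ACSS2-HKO libraries, against 515, 1897 and 4128 in ACSS2-flox libraries. ACSS2-flox replicate 1 reached a median of 16.7% of the mean of the other ACSS2-flox libraries in the 14 genes, beside 78.3% over all tested genes and 56.1% over the 982 longest of them. The median within-group SD on the log2 scale was 0.76 over the 9 tested of the 14, beside 0.26 over all tested genes.

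Each of the 9 tested genes of this set was positive in log2 fold change, beside 6483 of 9818 over all tested genes. The median of the 9 was 0.30, and none of them passed the limma threshold. But 8 of the 9 were negative when ACSS2-flox replicate 1 was left out, 6 when ACSS2-HKO replicate 3 was, and all 9 when both were. These libraries were the lowest and the highest of their groups in each gene, so leaving them out could only lower the fold changes. All 9 stayed positive when any 1 of the other libraries was left out, with medians from 0.318 without ACSS2-flox replicate 2 to 0.698 without ACSS2-flox replicate 3. With array weights, which give less weight to libraries that stand apart, 8 were negative. Under median-ratio, TMM, length-loess and voom scaling Cdc20 alone turned negative, and under quantile normalization Cdc20 and Cdk1 did.

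Markers of other cell types also differed between libraries, and their part in the levels of the mitotic genes was not tested. The summed FPKM of 14 neutrophil and precursor markers was 40.4, 58.0 and 372 in ACSS2-HKO libraries, against 19.1, 14.6 and 8.46 in ACSS2-flox libraries. Of these markers, Ly6g, Mpo, Elane, Prtn3 and Camp were at 0 in at least 1 library. That of 12 Kupffer cell and macrophage markers was 761, 708 and 1738 in ACSS2-HKO libraries, against 396, 603 and 506 in ACSS2-flox libraries. ACSS2-HKO replicate 3 was thus the highest library for both lists, while ACSS2-flox replicate 3 was not raised in either. S100a8 and S100a9 made up most of the neutrophil sum, at 138 and 177 FPKM in ACSS2-HKO replicate 3.

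The summed FPKM of 13 erythroid markers was 489, 477 and 632 in ACSS2-HKO libraries, against 483, 671 and 1285 in ACSS2-flox libraries, and Ahsp, Tspo2 and Slc4a1 were at 0 in at least 1 library. Over 10 markers of sinusoidal endothelium it was 174, 142 and 156 in ACSS2-HKO libraries, against 44.9, 178 and 212 in ACSS2-flox libraries. ACSS2-flox replicate 3 was highest for these 2 sums and ACSS2-flox replicate 1 lowest for the endothelium. The erythroid sum was made up mostly of globins, and not all precursor markers followed it: Klf1 and Car1 were highest in ACSS2-flox replicate 1, and Epor and Car2 in ACSS2-HKO replicate 1. The lists for T, NK and B cells, stellate cells and cholangiocytes spanned 9.03 to 30.3, 104 to 191 and 30.6 to 75.4 summed FPKM over the 6 libraries. ACSS2-HKO replicate 3 was also the highest library for T, NK and B cells and for cholangiocytes, and ACSS2-HKO replicate 1 for stellate cells. The summed hepatocyte list was highest in ACSS2-flox replicate 1, at 86931, and lay between 52359 and 60904 in the others. Alb, Apoa1 and Ttr made up most of that sum, and Apob, Cps1 and Hnf4a were lowest in the same library.

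**Figure D4:**
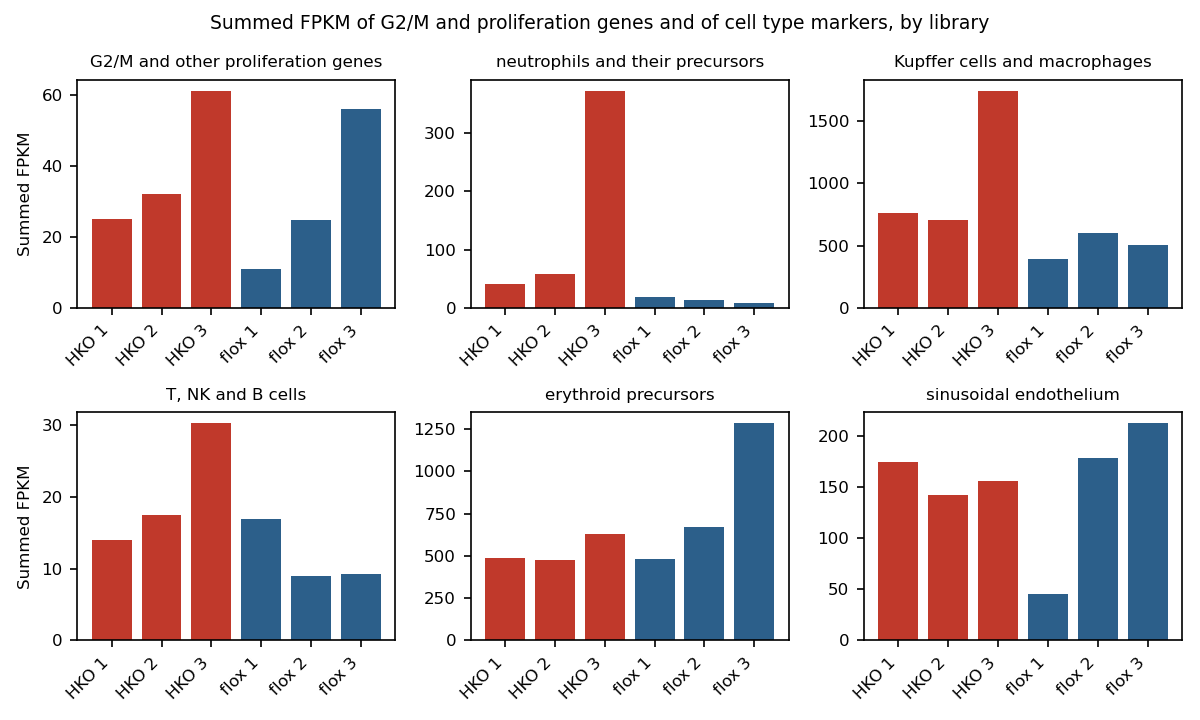
Bars are the summed FPKM of the 14 G2/M and other proliferation genes and of 5 marker lists in each library, with axes that start at 0 and differ between panels. The proliferation sum is highest in replicate 3 of both genotypes, whereas the neutrophil and Kupffer sums are highest in ACSS2-HKO replicate 3 and the erythroid sum in ACSS2-flox replicate 3.

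Further genes of the cycle were examined by lists, of which no member passed the limma adjusted threshold. Of 43 genes of the replication machinery 26 were tested, with a median log2 fold change of 0.12. The pair with the smallest p included Mcm10, a helicase-activating factor, which had 3.95, 4.07 and 3.04 FPKM in ACSS2-HKO libraries, against 8.20, 6.11 and 8.52 FPKM in ACSS2-flox libraries. All ACSS2-HKO values lay below all ACSS2-flox values, with a ratio of means of 0.485 and a log2 fold change of -0.87 ± 0.20 (adjusted p by limma = 0.554). Among the 26 tested genes 1 was separated downwards and 1 upwards, beside 2.94% and 12.5% of all tested genes. Rfc2, a subunit of the clamp loader, had 17.4, 13.9 and 12.3 FPKM in ACSS2-HKO libraries, against 8.11, 8.52 and 12.4 FPKM in ACSS2-flox libraries, and 15.1% of its exonic bases lie in exons of Lat2 on the opposite strand.

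Mitosis and spindle genes numbered 60, of which 22 were tested. At an unadjusted p under 0.05 limma counted 2 upwards and 1 downwards, beside 6.09% and 1.5% of all tested genes. ACSS2-HKO replicate 3 and ACSS2-flox replicate 3 were the 2 highest libraries in 39 of the 60, which is 65.0%. That share was 5.86% over all tested genes and 8.86% over those averaging 1 to 5 FPKM, whereas 38 of the 60 were too low to be tested. Bub3, a spindle checkpoint protein, had 13.02, 15.6 and 17.4 FPKM in ACSS2-HKO libraries, against 10.5, 11.4 and 11.9 FPKM in ACSS2-flox libraries, with no overlap. It was the only 1 of the 22 tested genes separated upwards, beside 12.5% of all tested genes. Cdca8, a subunit of the passenger complex, had 0.974, 1.54 and 2.79 FPKM in ACSS2-HKO libraries, against 0.237, 0.744 and 1.03 FPKM in ACSS2-flox libraries.

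Of 24 p53 targets and growth arrest genes, which include several regulated alongside Cdkn1a, 20 were tested, 13 had a positive log2 fold change and the median was 0.22. At an unadjusted p under 0.05 limma counted 3 of the 20 higher and 0 lower, beside 6.09% and 1.5% of all tested genes, and 3 were separated upwards, beside 12.5%. Over all tested genes 6483 of 9818 were positive, a share near that of this list. Phlda3, a p53-induced inhibitor of AKT signalling, had 1.91, 1.35 and 1.74 FPKM in ACSS2-HKO libraries, against 0.445, 0.586 and 1.14 FPKM in ACSS2-flox libraries, at a log2 fold change of 0.64 ± 0.20 (adjusted p by limma = 0.636). Fas, the death receptor, had 6.08, 6.56 and 14.9 FPKM in ACSS2-HKO libraries, against 5.57, 4.596 and 4.06 FPKM in ACSS2-flox libraries, at a log2 fold change of 0.73 ± 0.31 (adjusted p by limma = 0.649). Both separated the genotypes, although the ACSS2-HKO mean of Fas leaned on replicate 3.

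Other CDKs, cyclins and inhibitors gave 13 tested genes of 18 in the table, 1 of them higher at an unadjusted p under 0.05, beside 6.09% of all tested genes. Ccng1, a cyclin induced by p53, had 20.04, 20.7 and 16.8 FPKM in ACSS2-HKO libraries, against 12.0, 14.4 and 13.6 FPKM in ACSS2-flox libraries, at a log2 fold change of 0.49 ± 0.17 (adjusted p by limma = 0.637). Cdkn2d, which encodes p19, another inhibitor of CDK4 and CDK6, had 1.92, 1.91 and 3.49 FPKM in ACSS2-HKO libraries, against 1.61, 1.18 and 1.59 FPKM in ACSS2-flox libraries. In both the genotypes did not overlap, and they were the 2 of the 13 tested genes separated upwards, beside 12.5% of all tested genes.

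Hepatocyte growth signals gave 17 tested genes of 24, with a median of 0.09. At an unadjusted p under 0.05 limma counted 1 of them higher, beside 6.09% of all tested genes. Tgfa, a ligand of the EGF receptor, had 4.38, 5.30 and 8.21 FPKM in ACSS2-HKO libraries, against 2.44, 3.38 and 4.32 FPKM in ACSS2-flox libraries, separated by a narrow gap. In this list 2 of the 17 tested genes were separated upwards, beside 12.5% of all tested genes. Fst, the activin antagonist follistatin, had 2.20, 4.24 and 1.40 FPKM in ACSS2-HKO libraries, against 0.104, 1.48 and 2.28 FPKM in ACSS2-flox libraries, which overlapped.

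The DNA damage and replication checkpoint list gave 9 tested genes of 22, with a median of 0.14. Rad9a, a subunit of the checkpoint clamp, averaged 2.15 ± 0.742 FPKM in ACSS2-HKO libraries and 1.20 ± 0.146 FPKM in ACSS2-flox libraries (SD, n = 3 each), and Nbn, of the break-sensing MRN complex, averaged 2.11 ± 0.221 FPKM in ACSS2-HKO libraries and 2.68 ± 0.130 FPKM in ACSS2-flox libraries. The genotypes were separated in both genes, in opposite directions. In that list 2 of the 9 tested genes were separated upwards and 1 downwards, beside 12.5% and 2.94% of all tested genes. At an unadjusted p under 0.05 limma counted 1 higher and 0 lower, beside 6.09% and 1.5%. The 12 tested E2F, RB and DREAM factors and the 9 tested genes of nucleotide and histone supply had none at an unadjusted p under 0.05, with medians of -0.04 and 0.02. E2f4, a repressor E2F, averaged 11.4 ± 1.65 FPKM in ACSS2-HKO libraries and 9.14 ± 2.04 FPKM in ACSS2-flox libraries. Lin9, of the MuvB core, averaged 1.02 ± 0.238 FPKM in ACSS2-HKO libraries and 1.39 ± 0.563 FPKM in ACSS2-flox libraries. Dnmt1, the maintenance DNA methyltransferase, averaged 2.79 ± 0.704 FPKM in ACSS2-HKO libraries and 1.79 ± 0.553 FPKM in ACSS2-flox libraries, and Asf1b, a histone chaperone, 1.35 ± 0.782 FPKM in ACSS2-HKO libraries and 0.821 ± 0.696 FPKM in ACSS2-flox libraries.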

How the data were processed

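Bulk RNA from whole mouse liver was measured in 3 ACSS2-HKO and 3 ACSS2-flox libraries, grouped by the genotype label. The authors deposited 1 FPKM value per gene and library. The submitters' processing notes name mm10 and DESeq2 without a role; for the aligner, counter, annotation, filter and strand setting the entry is: not given in the sources used here. The FPKM values gave whole fragments (within 0.01) for 99.8% of genes, from which library totals and counting intervals were recovered.

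Genes averaging 1 FPKM or more were tested with limma 3.58.1 in R 4.3.3 (lmFit and eBayes with trend) on log2(FPKM + 1), two-sided, with Benjamini-Hochberg adjustment over all tested genes; single genes also had an exact permutation test over 20 arrangements, smallest p 0.1. Voom on the recovered fragments, as a count test, called 0 genes. The scripts were tested on simulated data. Alternatives were other pseudocounts, filters, scalings, weights, voom on the recovered fragments, a replicate block and leaving out libraries. The members, lists and marker lists were chosen with earlier results of these data known. All members were named, with values per library for those separated by genotype, those at an unadjusted p under 0.05, those averaging at least 5 FPKM and the most abundant of each role, and others chosen after their values were seen; of each further list, the 2 tested genes of smallest p were named. Over all tested genes, libraries with the same number did not deviate together (correlations over genes of 0.013, 0.003 and -0.063), so the main test has no block. The 14 G2/M and other proliferation genes differed from this, with replicate 3 the highest of its group in both genotypes. For Ccnb1 the replicate block lowered the SE from 0.486 to 0.21 (limma adjusted p = 0.803). Start windows and gene positions come from RefSeq on GRCm38.p6, and exon overlaps from GENCODE on GRCm38.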

Additional observations from a re-analysis of the deposited data

How the results depend on the processing

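No setting called a member at an adjusted p under 0.05 with limma. Counts over all genes were 0 in each direction, with 1 higher and 3 lower under the replicate block (only the number is shared, so this block rests on no pairing) and 0 to 3 higher and 0 to 0 lower when leaving out each library in turn, 3 of them without ACSS2-HKO replicate 2. The replicate block put Cdkn1a and Mcm2 at an unadjusted p under 0.05, and ACSS2-HKO replicate 1 correlated best with ACSS2-flox replicate 3. Over all settings the members had a median between -0.09 and 0.43. Members separated upwards numbered 3, with 1 under a filter of 5 FPKM. They numbered 2 under median-ratio, TMM, quantile, length-loess and voom scaling, beside 6.37% to 8.14% of all tested genes. Leaving out each library gave 3 to 7, beside 16.5% to 21.85%, the 7 and the 21.85% both without ACSS2-flox replicate 3. Those separated downwards numbered 0, with 0 to 4 on leaving out each library (4 without ACSS2-flox replicate 1, beside 14.5%). Without both ACSS2-flox replicate 1 and ACSS2-HKO replicate 3, 7 of the 32 tested members were separated downwards and 3 upwards. Over all tested genes those shares were 17.8% and 23.1%. At an unadjusted p under 0.05 limma counted Cdk6 and Cdkn1a higher there, and Ccne2, Cdc20, Rrm2 and Top2a lower. Beside them stood 518 higher and 376 lower of 9846 tested genes. Higher genes made up 80.3% of those with an unadjusted p under 0.05, a share that was 47.7% under median-ratio scaling, 48.5% under TMM, 52.3% under quantile normalization, 52.0% under the length loess, 53.9% under voom and 52.1% without ACSS2-flox replicate 1. The median of all genes moved by over 0.1, to -0.04 under median-ratio scaling. The cause was not tested for any reversal.

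Signs turned for single genes as follows, on the log2 scale. With array weights, values were -0.10 for Birc5, -0.10 for Ccna2, -0.21 for Ccnb1, -0.10 for Ccnb2, -0.44 for Cdc20, -0.16 for Cdk1, -0.007 for Cdkn1b, -0.11 for Mcm3, -0.026 for Mcm7, -0.12 for Mki67, -0.060 for Pcna, -0.19 for Top2a and -0.016 for Tyms. Under the length loess, values were -0.012 for Cdc20, -0.052 for Cdkn1b and -0.061 for Tyms. Under median-ratio scaling, values were -0.004 for Cdc20, -0.11 for Cdkn1b, -0.11 for Pcna and -0.040 for Tyms. With a pseudocount of 0.1, values were 0.17 for Ccne1 and 0.017 for Cdt1. Under quantile normalization, values were -0.13 for Cdc20, -0.047 for Cdk1, -0.071 for Cdkn1b, -0.002 for Mcm3 and -0.11 for Tyms. Under TMM scaling, values were -0.006 for Cdc20, -0.11 for Cdkn1b, -0.11 for Pcna and -0.041 for Tyms. Under voom, values were -0.002 for Cdc20, -0.082 for Cdkn1b, -0.074 for Pcna and -0.040 for Tyms. Without both ACSS2-flox replicate 1 and ACSS2-HKO replicate 3, values were -0.38 for Birc5, -0.40 for Ccna2, -0.55 for Ccnb1, -0.41 for Ccnb2, -0.046 for Ccnd2, -0.74 for Cdc20, -0.41 for Cdk1, -0.084 for Cdkn1b, -0.032 for E2f1, -0.26 for Mcm3, -0.070 for Mcm5, -0.076 for Mcm7, -0.37 for Mki67, -0.071 for Pcna, -0.16 for Stmn1, -0.51 for Top2a and -0.062 for Tyms. Leaving out each library in turn gave -0.007 to 0.95 for Birc5, -0.033 to 0.82 for Ccna2, -0.14 to 0.76 for Ccnb1, -0.16 to 0.62 for Ccnb2, -0.37 to 0.016 for Ccnd1, -0.043 to 0.31 for Ccnd2, -0.42 to 0.21 for Ccne1, -0.38 to 0.52 for Cdc20, -0.14 to 0.52 for Cdk1, -0.22 to 0.077 for Cdk2, -0.086 to 0.091 for Cdk4, -0.044 to 0.20 for Cdkn1b, -0.23 to 0.15 for Cdkn2c, -0.30 to 0.15 for Cdt1, 0.11 to 0.49 for E2f1, -0.051 to 0.36 for Mcm3, 0.16 to 0.75 for Mcm5, -0.040 to 0.43 for Mcm7, -0.056 to 0.58 for Mki67, -0.068 to 0.12 for Pcna, -0.58 to 0.24 for Rrm2, -0.011 to 0.83 for Stmn1, -0.092 to 0.70 for Top2a and -0.088 to 0.24 for Tyms.

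Depth was similar in all libraries, but 7 members average under 1 FPKM and rest on as few as 3 fragments in 1 library, and with 3 libraries a group the exact permutation test cannot go below 0.1. Of the members, 12 share exonic bases with a gene on the opposite strand.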

Other observations

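Values of 3 genes of the lists above were looked up after the rest had been seen. Trp53 and Mdm2 are on the list of p53 targets and Myc on that of growth signals, so the counts given there include them. Myc, a transcription factor that drives cell growth, had 5.87, 2.59 and 5.89 FPKM in ACSS2-HKO libraries, against 1.22, 4.65 and 28.0 FPKM in ACSS2-flox libraries. ACSS2-flox replicate 3 stood far above the other libraries. ACSS2-HKO replicate 3 came second, just above ACSS2-HKO replicate 1, and ACSS2-flox replicate 1 was lowest. The mitotic genes had the same pair of highest libraries and the same lowest one. Trp53, the gene of p53, averaged 10.3 ± 2.85 FPKM in ACSS2-HKO libraries and 8.73 ± 1.69 FPKM in ACSS2-flox libraries (SD, n = 3 each). Mdm2, a p53 target that degrades it, averaged 3.26 ± 0.451 FPKM in ACSS2-HKO libraries and 2.69 ± 0.686 FPKM in ACSS2-flox libraries. Neither separated the genotypes.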
